A study of Rattus norvegicus with 9 samples.

Results

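Transcripts of potassium channel genes were examined in freshly isolated cells of the rat adrenal zona glomerulosa, the outer layer of the adrenal cortex that makes aldosterone. The genes were all those whose single symbol in the array's platform annotation starts with Kcn, the prefix shared by potassium channel pore subunits and their accessory subunits. They were represented by 126 of the 31042 probe sets that are not controls and by 75 of the 14217 genes so named, of which 31 had 2 or more probe sets. Cells were obtained by enzymatic and mechanical dispersion, and each of 3 independent preparations was divided into 1 control, 1 angiotensin II (Ang II, 100 nM) and 1 potassium (16 mM) tube. All tubes were kept for 2 h at 37 °C in DMEM:F12 medium with fatty acid free bovine serum albumin. Total RNA of each of the 9 tubes was hybridised to an Affymetrix Rat Genome 230 2.0 array, which gave 1 linear signal per probe set. The labels do not give the strain, sex or age of the rats.

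Potassium channels set the resting membrane potential of glomerulosa cells. These cells rest close to the potassium equilibrium potential because background potassium channels stay open, mainly two-pore channels of the TASK type encoded by Kcnk3 (TASK-1) and Kcnk9 (TASK-3). Both Ang II, which closes such channels, and a rise in extracellular potassium depolarise the cell, open voltage-gated calcium channels and so raise aldosterone synthesis. The question asked here was which channel transcripts either stimulus changed within 2 h.

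After potassium, 1 probe set each of 2 two-pore channel genes rose and that of 1 modifier subunit fell, of 30 tested. Over all tested probe sets 5.39% were called in that comparison. After Ang II no potassium channel probe set passed the test, where 2.17% of all did. Kcnk5, which encodes TASK-2, a background channel opened by alkaline pH, rose 1.65-fold after potassium. One of the 3 probe sets of Kcnk3 rose 1.93-fold, and the others did not pass the test. Kcns3, which encodes Kv9.3, a silent subunit that alters the gating of Kv2 channels, fell 1.38-fold. Kcnk5 was also the only member past the threshold between the stimuli, with a signal 1.71-fold lower after Ang II than after potassium, while the difference of that Kcnk3 probe set, 1.86-fold, did not pass (adjusted p = 0.067). Each of these calls ended under some of the alternative settings, and those of Kcns3 and Kcnk3 ended under many.

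Folds and differences are on the log2(signal + 16) scale, where 16 is added to steady dim signals, so they understate the change of dim probe sets. Tests were made with limma, with the preparation as a block, over all 18625 probe sets whose mean signal over the 9 arrays exceeded the 40th percentile. Adjusted p-values are Benjamini-Hochberg values over all of them, with a threshold of 0.05. Errors are SD of the 3 signals of a group or standard errors (SE) of a fitted difference, with n = 3 tubes a group, and the number of arrays limits the precision.

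The upstream sequences of Kcnk5 and Kcns3 are shown because these members were called on their only probe set. They are the 250 bases before the start of the gene in RefSeq (GRCr8, 5′ to 3′ on the gene's own strand), chr15:4171375-4171624 on the + strand and chr6:39584106-39584355 on the - strand. RefSeq's table held a 2nd start for Kcns3, whose window is not shown. Capitals mark GGGCGG, the core of the GC box, the element bound by Sp-type factors.
Kcnk5: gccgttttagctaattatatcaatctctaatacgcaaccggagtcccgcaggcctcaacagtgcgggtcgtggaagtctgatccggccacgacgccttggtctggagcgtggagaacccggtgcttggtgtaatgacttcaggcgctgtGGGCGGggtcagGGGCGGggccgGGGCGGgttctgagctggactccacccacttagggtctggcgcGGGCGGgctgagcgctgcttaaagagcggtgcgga
Kcns3: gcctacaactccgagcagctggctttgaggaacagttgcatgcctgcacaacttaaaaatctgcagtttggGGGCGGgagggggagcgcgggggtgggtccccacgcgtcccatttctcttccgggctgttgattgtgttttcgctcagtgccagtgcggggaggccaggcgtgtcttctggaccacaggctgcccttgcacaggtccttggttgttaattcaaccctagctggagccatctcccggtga
On both strands, the window of Kcnk5 held GGGCGG 4 times, at 35 to 101 bases before the start, and that of Kcns3 held it 1 time. At least 1 GGGCGG was found in 32.4% of the 27457 RefSeq windows of this length and in 29 of the 52 windows (55.8%) available for the potassium channel genes. TGACG, the half-site of the cyclic AMP response element, AGGTCA, the half-site of many nuclear receptors, and CCAAT were found in neither window. Over all windows TGACG was found in 19.0%, AGGTCA in 13.7% and CCAAT in 34.3%. In the windows of the potassium channel genes these shares were 21.2%, 5.8% and 23.1%. A match describes the letters only, and the matches in a window did not overlap. GC made up 62.8% of the Kcnk5 window and 59.2% of the Kcns3 window, against a median of 52.0% over all windows and 63.4% over those of the potassium channel genes. A window for Kcnk3 was not used here.

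Most potassium channel probe sets were dim. The mean signal exceeded the filter, which lay at 87.1, for 30 of the 126 (23.8%), compared with 18625 of all 31042 and 67.4% of those with a single symbol. These 30 represented 26 of the 75 genes. Mean signals of the 126 ran from 6.50 for a probe set of Kcnip1 to 1440.4 for one of Kcnk3, with a median of 49.8. Only 4 were in the upper 20% of all mean signals, 1 each of Kcnk3, Kcns3, Kcne4 and Kcnma1. The members nearest to the filter were Kcnj5 just below it, at 85.4, and Kcnk13 just above, at 92.8. Signals of different probe sets depend on their probes as well as on transcript level, so their order is not an order of transcript abundance.

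**Figure D1:**
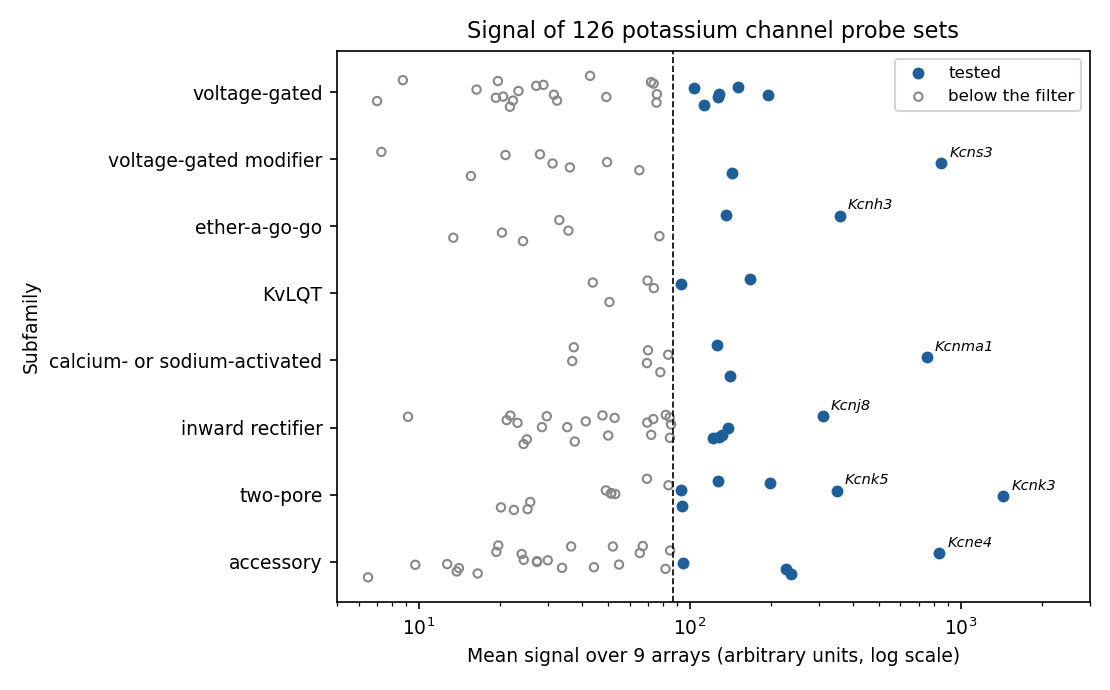
Mean signal over the 9 arrays (horizontal, log scale, arbitrary units) of the 126 potassium channel probe sets, by subfamily (vertical, points spread for visibility). Filled points are the 30 that were tested and open points the 96 below the filter (dashed line, signal 87.1), and genes with a mean signal over 300 are named. The plot shows that two-pore channels had the brightest probe set, of Kcnk3, and that most members of each subfamily lay below the filter.

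The share that could be tested differed by subfamily. It was highest for the two-pore channels, with 6 of 16 probe sets (Kcnk3 with 3, Kcnk5, Kcnk9 and Kcnk13), and lowest for the accessory subunits, with 4 of 26 (Kcnab2, Kcne3, Kcne4 and Kcnmb4). Of the voltage-gated pore subunits 6 of 25 were tested (Kcnc4, Kcnd1, 2 of Kcnd2 and 2 of Kcnd3), of the modifier subunits 2 of 10 (Kcng3 and Kcns3), of the ether-a-go-go type 2 of 8 (Kcnh2 and Kcnh3) and of the KvLQT type 2 of 6 (Kcnq1 and Kcnq5). The calcium- or sodium-activated channels had 3 of 9 tested (Kcnma1, Kcnn4 and Kcnt1) and the inward rectifiers 5 of 26 (Kcnj3, Kcnj4, Kcnj8, Kcnj11 and Kcnj14).

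Control replicate 2 stood apart from the other 8 arrays at low signals. The median signal of the 126 probe sets was 84.9 on that array and between 37.2 and 53.8 on the others. Control replicate 2 held the highest of the 9 signals for 60 of the 126 (47.6%), against 29.2% of all 31042 probe sets. After scaling by the authors the trimmed mean of every array was 500.2, while the median over all probe sets was 172.9 on this array and 128.0 to 143.6 on the others. Values without this array are given below for the called members and for several others on which it was far from the other controls.

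**Figure D2:**
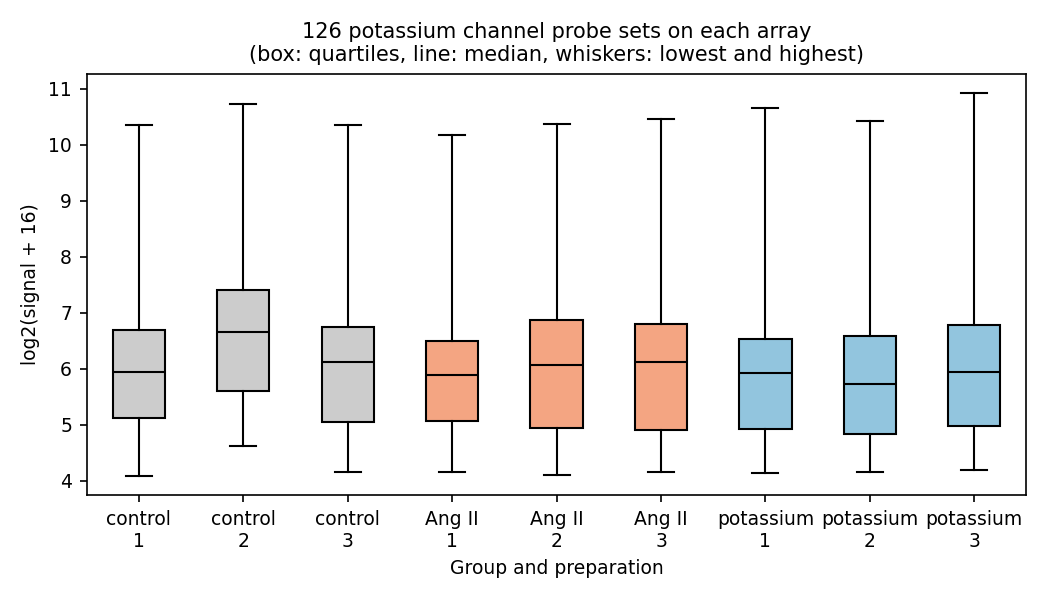
Distribution of log2(signal + 16) (vertical) of the 126 potassium channel probe sets on each of the 9 arrays (horizontal, by group and preparation). Boxes are quartiles, lines medians and whiskers the lowest and highest values. The median line of control replicate 2, at a signal of 84.9, lies above those of the other 8.

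Cell type markers were checked on the same arrays. All 8 matched markers of zona glomerulosa were above the filter, among them Agtr1a, Agtr1b, Dab2 and Vsnl1, while Cyp11b2 was not analysed here. Markers of other cells were present too. All 6 markers of capsule fibroblasts, all 7 of smooth muscle and pericytes, 6 of 7 of endothelium, 7 of 8 of macrophages, 7 of 9 of chromaffin cells, 2 of 4 of lymphocytes, 3 of 6 of neurons and Schwann cells and both of red blood cells had a probe set above the filter. Of zona fasciculata markers Cyp11b1 and Akr1b7 were above it and Cyp17a1 was not. The potassium channel signals are therefore those of a mixed preparation, in which fewer cells of a type and less RNA per cell cannot be told apart. After potassium no marker in any of these lists passed the test. After Ang II the glomerulosa marker Wnt4 fell (log2 difference -0.32 ± 0.07, adjusted p = 0.022) and the smooth muscle marker Acta2 rose (0.40 ± 0.10, adjusted p = 0.049, limma). In Ang II against potassium Wnt4 was lower after Ang II (-0.41 ± 0.07, adjusted p = 0.00225) and no other marker was called. The median difference of the 10 glomerulosa probe sets was -0.21 in that comparison, with Shh at -1.60 ± 0.46 (adjusted p = 0.064), and 0.01 and 0.14 against control after Ang II and potassium.

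Among the two-pore channels, Kcnk5 (probe set 1371898_at) gave signals of 272, 337 and 252 in the control tubes of preparations 1 to 3. The signals were 285, 237 and 304 after Ang II and 432, 442 and 577 after potassium. All 3 potassium tubes were above all 6 others, and the control and Ang II tubes overlapped. The mean was 287 ± 44.5 in controls, 275 ± 34.3 after Ang II and 484 ± 81.1 after potassium (SD, n = 3). The log2 difference of potassium from control was 0.72 ± 0.17 (SE, adjusted p = 0.020, limma) and was 0.64, 0.38 and 1.15 in the 3 preparations. Ang II against control gave -0.05 ± 0.17 with a 95% interval from -0.41 to 0.30. Ang II was lower than potassium by a log2 difference of -0.77 ± 0.17 (adjusted p = 0.014). The glomerulosa marker Wnt4 was lower in the same comparison (-0.41), and its part in this difference was not tested. Without control replicate 2 the difference of potassium from control was 0.91 (adjusted p = 0.00715). Leaving out preparation 1 (0.76, adjusted p = 0.12) or preparation 3 (0.51, adjusted p = 0.22) ended this call, and so did leaving out control replicate 1 (0.71, adjusted p = 0.074) or 3 (0.54, adjusted p = 0.13) or potassium replicate 1 (0.79, adjusted p = 0.058) or 3 (0.58, adjusted p = 0.13). The call between the stimuli ended when preparation 1 (-0.87, adjusted p = 0.095), preparation 3 (-0.71, adjusted p = 0.073), Ang II replicate 2 (-0.65, adjusted p = 0.10) or potassium replicate 3 (-0.64, adjusted p = 0.12) was left out.

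Kcnk3 was represented by 3 tested probe sets, which did not move together. The brightest, 1387441_at, gave 1283, 1682 and 1292 in controls, 1141, 1301 and 1388 after Ang II and 1600 (preparation 1), 1347 and 1929 after potassium. Its groups overlapped. Its log2 difference was 0.19 ± 0.13 after potassium (adjusted p = 0.47) and -0.14 ± 0.13 after Ang II (adjusted p = 0.67). After potassium it was higher in preparations 1 and 3, by 0.31 and 0.57, and lower in preparation 2, at -0.32. Preparation 2 holds control replicate 2, and without the whole preparation this probe set was called after potassium (0.44, adjusted p = 0.046), while without control replicate 2 alone it was not (0.37, adjusted p = 0.14). Between the stimuli it was lower after Ang II in all 3 preparations (-0.33 ± 0.13, adjusted p = 0.19, limma). It was called there in 2 of 24 alternatives.

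The second probe set of Kcnk3, 1398313_a_at, was the one called. Its signals were 171, 187 and 90.3 in controls, 142, 137 and 172 after Ang II and 238, 285 and 366 after potassium. All potassium tubes were above all others. The log2 difference of potassium from control was 0.95 ± 0.26 (adjusted p = 0.046; without control replicate 2 it was 1.16, adjusted p = 0.041), with 0.44, 0.57 and 1.85 in the 3 preparations, the largest in preparation 3, whose control tube was the lowest of the 9. Without control replicate 3 it was 0.54 (adjusted p = 0.23), and without the replicate block its adjusted p was 0.068. Its call ended in 14 of 23 alternative settings, among them each one that left out a preparation or a potassium tube (0.50 to 1.21, adjusted p = 0.057 to 0.37) and those without Ang II replicate 1 or 3 (adjusted p = 0.061 and 0.053). Ang II gave 0.06 ± 0.26 against control and -0.89 ± 0.26 against potassium (adjusted p = 0.067). Between the stimuli this probe set was lower after Ang II in all 3 preparations without overlap. It was called there in 5 of 23 alternatives, with adjusted p-values (limma) from 0.00993 to 0.36 over the 23. The smallest came when only the 6 arrays compared were fitted. The corresponding fit of the 6 control and potassium arrays ended its call after potassium (adjusted p = 0.069, limma). The third probe set, 1375807_at, had signals of 183, 147 and 53.4 in controls, 152, 131 and 176 after Ang II and 81.9, 111 and 107 after potassium. It did not pass the test in any comparison, and its difference of potassium from control was of the other sign (-0.18 ± 0.34). The files do not say which parts of the transcript these probe sets match.

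Kcnk9, the gene of TASK-3, could be tested but was near the filter. Its control signals were 90.8, 195 and 28.3, wider apart than those after Ang II (118, 89.2 and 101) or potassium (62.2, 71.6 and 89.5). The log2 difference was 0.24 after Ang II, with a 95% interval from -0.69 to 1.17, and -0.15 after potassium, with an interval from -1.08 to 0.77. These intervals leave room for changes of about the size seen for Kcnk5 in either direction. Kcnk13, the gene of the THIK-1 channel, gave -0.94 ± 0.47 after Ang II (adjusted p = 0.39) and -0.28 ± 0.47 after potassium (adjusted p = 0.81), with control replicate 2 at 215 against 88.3 and 71.3 in the other controls. Without that array the differences of Kcnk13 were -0.20 after Ang II and 0.45 after potassium, and those of Kcnk9 were 0.83 and 0.43, so the sign after potassium turned for both. Kcnk1 (mean signal 69.6), both probe sets of Kcnk2 (20.1 and 22.5), which encodes the stretch-sensitive channel TREK-1, and both of Kcnk6 (83.6 and 51.2) were below the filter.

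**Figure D3:**
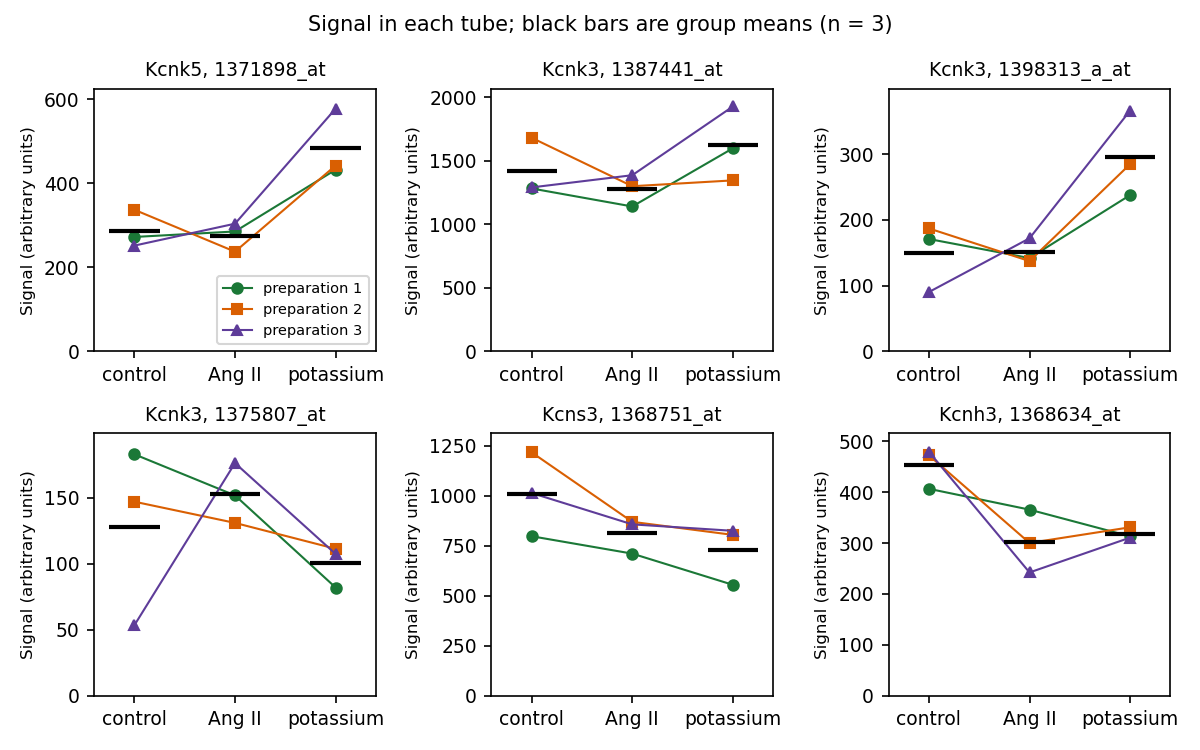
Signal (vertical, arbitrary units, from 0) of 6 probe sets in the control, Ang II and potassium tubes (horizontal), with tubes of 1 preparation joined by a line and group means as black bars (n = 3). In Kcnk5 and in probe set 1398313_a_at of Kcnk3 the 3 potassium tubes lie above all others, Kcns3 was lower after potassium in each preparation, and all control tubes of Kcnh3 lie above the tubes of both stimuli.

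Among the voltage-gated channels, Kcns3 was the only member past the threshold. Its signals were 798, 1218 and 1014 in controls, 711, 870 and 857 after Ang II and 555, 805 and 825 after potassium. The groups overlapped, since preparation 1 was lowest in every group, but within each preparation the potassium tube was below the control tube. The log2 difference of potassium from control was -0.46 ± 0.10 (adjusted p = 0.017), with -0.51, -0.59 and -0.29 in the 3 preparations. After Ang II it was -0.29 ± 0.10 (adjusted p = 0.19), also lower in each preparation, and the stimuli differed by 0.17 ± 0.10 (adjusted p = 0.48). The fit without the replicate block did not call Kcns3 after potassium (adjusted p = 0.22). Without control replicate 2, its highest control, the difference was -0.39 (adjusted p = 0.11), it also missed the threshold without preparation 1 or 2, control replicate 1 or potassium replicate 1 or 2 (-0.48 to -0.40, adjusted p = 0.056 to 0.13), and with the arrays scaled to the median of all probe sets it was -0.34 (adjusted p = 0.12).

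Kcnh3, which encodes a channel of the ether-a-go-go family known mainly from brain, had signals of 407, 473 and 479 in controls, 366, 300.2 and 242 after Ang II and 313, 331 and 311 after potassium. All 6 stimulated tubes were below all 3 controls, yet neither difference passed the test (-0.57 ± 0.16 after Ang II, adjusted p = 0.084, and -0.48 ± 0.16 after potassium, adjusted p = 0.095). Both differences use the same 3 control tubes. Without control replicate 2 they were -0.56 and -0.47.

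Kcnd2, which encodes the Kv4.2 pore of a rapidly inactivating A-type current, had 2 tested probe sets, and both were lower after Ang II, with no overlap with controls. For 1379863_at the signals were 194, 293 and 198 in controls, 136, 136 and 175 after Ang II and 232, 164 and 225 after potassium. The 3 Ang II tubes of the other, 1387476_at, averaged 109 ± 27.9 against 182 ± 59.5 in controls and 161 ± 9.84 after potassium (SD, n = 3). Its gap was narrow, with the highest Ang II tube at 126.63 and the lowest control tube at 126.82. The log2 differences of Ang II from control were -0.55 ± 0.23 and -0.65 ± 0.23 (adjusted p = 0.27 and 0.20). After potassium they were -0.12 ± 0.23 and -0.13 ± 0.23. Neither probe set passed the test in any comparison, and without control replicate 2 the differences after Ang II were -0.265 and -0.50. The 2 tested probe sets of Kcnd3 had differences of opposite sign after Ang II (-0.47 ± 0.30 and 0.17 ± 0.32).

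Of the other voltage-gated members, Kcnc4, a Kv3-type gene, gave -0.66 ± 0.26 after potassium (adjusted p = 0.19) and was lower in all 3 preparations without overlap. Without control replicate 2 the difference of Kcnc4 after potassium was -0.59. The modifier gene Kcng3 gave 0.48 ± 0.26 (adjusted p = 0.35), higher in each preparation. Kcnh2, the gene of the hERG-type channel, had mean signals of 143 ± 34.2, 122 ± 41.7 and 145 ± 25.8 in control, Ang II and potassium tubes. Kcnq1, whose channel is found in many epithelia, had 187 ± 7.39, 169 ± 30.9 and 145 ± 76.2, with 1 potassium tube, of preparation 2, at 57.7 and the others at 183 and 195. Kcna4 was at a mean signal of 8.74 and was not tested.

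Among the inward rectifiers no probe set passed the test. Kcnj8, which encodes the Kir6.1 pore of an ATP-sensitive channel typical of vascular smooth muscle, had means of 313 ± 42.1, 313 ± 32.6 and 304 ± 49.99 in control, Ang II and potassium tubes. Its log2 difference had a 95% interval from -0.34 to 0.35 after Ang II and from -0.39 to 0.30 after potassium. The summed signal of 7 smooth muscle and pericyte markers was 6686 to 9267 in controls, 7428 to 10085 after Ang II and 7147 to 9230 after potassium, and the part of such cells in the Kcnj8 signal was not tested. Kcnj11, the gene of the Kir6.2 pore, gave -0.71 ± 0.32 after potassium (adjusted p = 0.24) and -0.61 ± 0.32 after Ang II (adjusted p = 0.41) at its 1 tested probe set, where control replicate 2 gave 264 and the other controls 113 and 132. Without that array the differences were -0.42 after potassium and -0.32 after Ang II.

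Kcnj3 and Kcnj5 encode the GIRK1 and GIRK4 subunits of channels gated by G proteins. In people, mutations of KCNJ5 cause aldosterone-producing adenomas. The tested probe set of Kcnj3 had control signals of 104, 350 and 115, and its log2 difference was -0.90 ± 0.37 after Ang II (adjusted p = 0.27). In the preparation of the highest control it was -2.00, and in the others -0.73 and 0.02. Without control replicate 2 it was -0.30, and the difference after potassium went from -0.48 to 0.12. The brighter probe set of Kcnj5 had means of 88.1 ± 52.0, 84.2 ± 22.7 and 84.0 ± 25.8 in control, Ang II and potassium tubes, just below the filter, and the dimmer one was at 21.1 over all arrays. Kcnj4 gave -0.54 ± 0.24 after potassium (adjusted p = 0.24) and was higher after Ang II than after potassium in every preparation (0.64 ± 0.24, adjusted p = 0.18).

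Of the calcium-activated channels, Kcnma1, which encodes the pore of the large-conductance BK channel, was steady at its bright probe set. It gave 698, 871 and 721 in controls, 727, 765 and 799 after Ang II and 647, 797 and 724 after potassium. The log2 difference had a 95% interval from -0.22 to 0.23 after Ang II and from -0.30 to 0.15 after potassium. The other probe sets of Kcnma1 were below the filter and moved in opposite directions after Ang II. For 1370472_a_at the signals were 90.5, 85.7 and 125 after Ang II against 57.0, 56.0 and 50.5 in controls. For 1369334_at they were 19.2, 11.1 and 13.7 against 55.4, 140 and 19.3. Kcnmb4, the BK beta subunit gene, gave means of 235 ± 21.0, 265 ± 58.6 and 207 ± 77.6. Kcnmb1, another beta subunit gene, was below the filter (33.8). Kcnn4, the gene of the intermediate-conductance channel of blood and immune cells, gave -0.66 ± 0.27 after potassium (adjusted p = 0.19), lower in each preparation. Without control replicate 2 the difference of Kcnn4 after potassium was -0.62. The summed signal of the 8 macrophage markers was 10785 to 13456 in controls and 9667 to 12238 after potassium, and their part in the Kcnn4 signal was not tested. Kcnn2 was not analysed here.

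Among accessory subunits, Kcne4, whose product inhibits several Kv channels, had the brightest probe set. Its signals were 773, 903 and 858 in controls, 675, 908 and 752 after Ang II and 885, 1170 and 592 after potassium, with both the highest and the lowest tube in the potassium group. Its difference from control was -0.12 ± 0.15 after Ang II and 0.01 ± 0.15 after potassium. Kcne1, partner of Kcnq1 in other tissues, was at a mean signal of 12.7, and the 3 probe sets of Kcnip1, a calcium-binding partner of Kv4 channels, were between 6.50 and 27.3.

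In counts, 2 of the 30 tested potassium channel probe sets rose and 1 fell after potassium, where 5.39% of all 18625 tested probe sets were called (2.8% higher and 2.59% lower). After Ang II none of the 30 was called by limma, where 2.17% of all were (1.64% higher and 0.526% lower). At an unadjusted p of 0.05, 5 of the 30 were lower and none was higher after Ang II, against 7.2% and 7.25% of all, and 6 were lower and 2 higher after potassium, against 10% and 8.76%. For Ang II against potassium 1 of the 30 was called, lower after Ang II, against 4.79% of all (3.1% higher and 1.7% lower), and at an unadjusted p of 0.05 there were 4 lower and 1 higher, against 7.66% and 8.54%. Signals of the groups did not overlap for 3 lower and no higher members after Ang II (7.73% and 7.3% of all), for 4 lower and 2 higher after potassium (9.79% and 7.82%), and for 3 lower and 2 higher in Ang II against potassium (9.03% and 9.71%). The counts of calls are small and near the share in the whole table. Ang II and potassium share their control tubes.

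**Figure D4:**
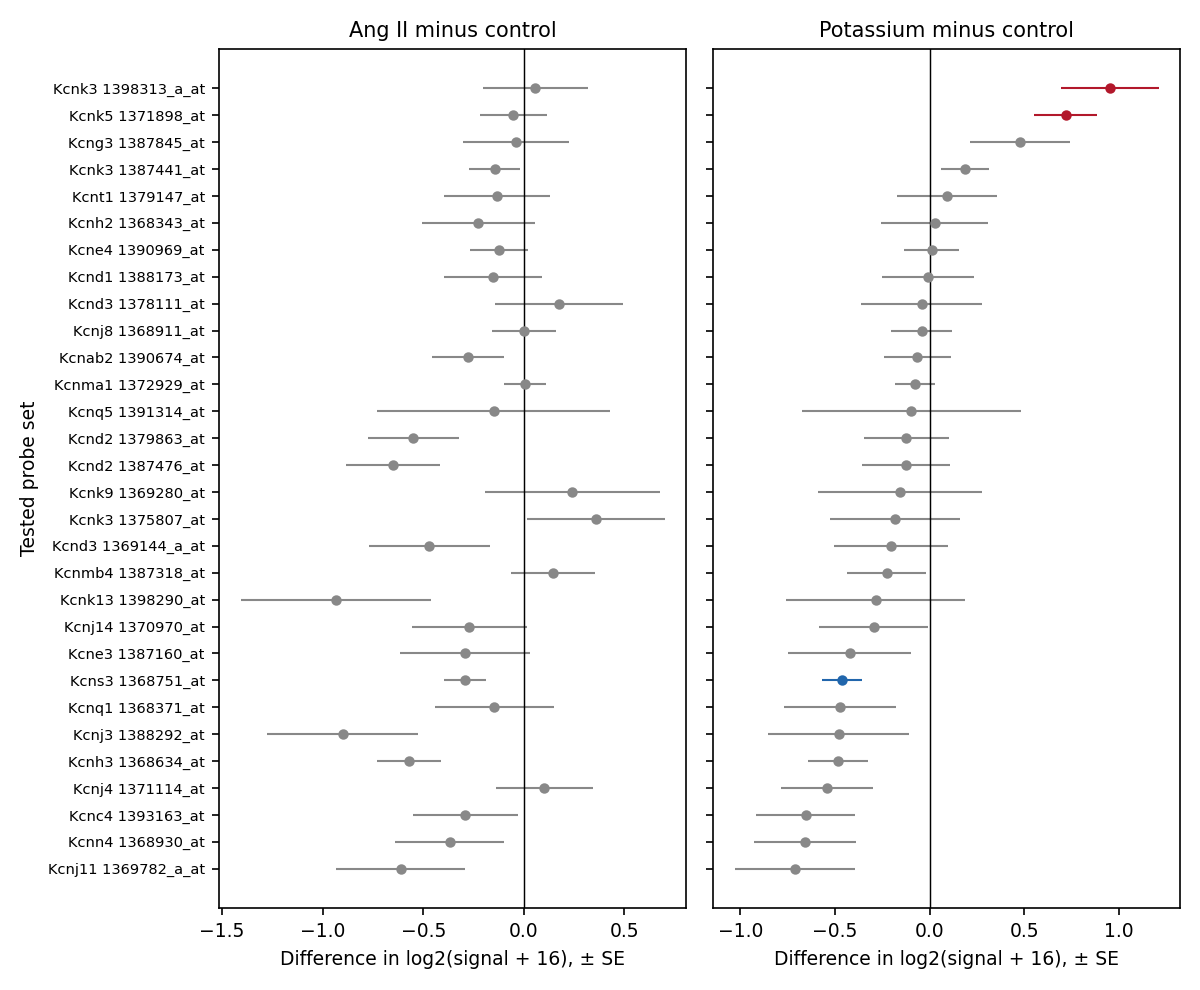
Difference in log2(signal + 16) from control (horizontal, bars ± SE) of the 30 tested potassium channel probe sets (vertical) after Ang II (left) and potassium (right), ordered by the potassium difference. Red points rose and the blue point fell at an adjusted p of 0.05. They are Kcnk3 1398313_a_at (0.95), Kcnk5 (0.72) and Kcns3 (-0.46), all after potassium. Grey points did not pass the test.

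Below these calls, most members lay under their controls. The log2 difference over all 126 probe sets was below 0 for 85 after Ang II and for 96 after potassium, with medians of -0.22 and -0.29 against -0.06 for all 31042 probe sets in both comparisons. Of all 31042 probe sets 41% and 41.5% were above 0, where 41 and 30 of the 126 were. By preparation the medians after potassium were -0.06, -0.67 and -0.06, with 65, 97 and 66 of 126 below 0, against 51.4%, 59.8% and 53.7% of all probe sets. After Ang II they were -0.10, -0.48 and -0.04, with 72, 92 and 65 below 0, against 52.2%, 59.8% and 54.1% of all. Over all 126 the median was lowest in preparation 2, whose control tube is control replicate 2. Among the 30 tested probe sets the medians by preparation after Ang II were -0.24, -0.33 and 0.07. Of these 24, 24 and 13 were below 0, against 52.8%, 53.1% and 53.5% of all tested. The medians of the 30 after potassium were -0.07, -0.43 and 0.04, with 16, 22 and 13 below 0, against 51.5%, 53% and 52.2%. Preparation 1 thus had as many tested members below control after Ang II as preparation 2. Without control replicate 2 the median fitted difference of the 30 was -0.18 after Ang II, against -0.15 with it, and -0.06 after potassium, against -0.14. The shift also depended on the scaling. With the arrays scaled to the median of all probe sets the medians of the 30 were -0.05 after Ang II and -0.03 after potassium. Those of all tested were then 0.09 and 0.10. Quantile normalization gave -0.10 and -0.06 for the 30, against -0.001 and 0.003 for all tested. Of the 96 members below the filter none was called when all 31042 probe sets were tested, the smallest adjusted p-values being 0.17 after Ang II, 0.16 after potassium and 0.32 between the stimuli. At an unadjusted p of 0.05, 5 of the 96 were lower and none higher after Ang II, and 9 were lower and 2 higher after potassium, where 11.3% and 14.1% of all probe sets passed in either direction.

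Genes that work with potassium channels in setting the membrane potential and the calcium signal were listed apart. Of partners outside the Kcn symbols, 12 of 15 genes were matched and 9 of their probe sets tested. Sgk1, the kinase that regulates several channels and the sodium channel degrader Nedd4l, rose after potassium (0.31 ± 0.07, adjusted p = 0.013) and gave 0.21 ± 0.07 after Ang II (adjusted p = 0.14). No other partner passed the test in any comparison. None of the 12 tested probe sets of voltage-gated calcium channel subunits and none of the 10 of calmodulin and its kinases was called by limma in any comparison. Cacna1h, the gene of a T-type calcium channel, gave -0.50 ± 0.21 after potassium at 1 of its probe sets (unadjusted p = 0.030, adjusted p = 0.20). The calcium channel genes had 1 of 12 probe sets under an unadjusted p of 0.05 after Ang II, of Cacnb1 (-0.61 ± 0.27). The calmodulin list had 1 of 10, of the kinase kinase gene Camkk2 (-1.10 ± 0.33, adjusted p = 0.11, limma). Over all tested probe sets 7.2% were lower and 7.25% higher at that level, so these counts do not set the lists apart.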

How the data were processed

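The authors deposited, for each array, a table of linear intensity by probe set. GCOS is named without a version in the submitters' processing notes, and how probes were corrected for background and combined is not stated there. The trimmed mean without the lowest and highest 2% was equal on all arrays, so the authors had applied a common scaling, and none was added. Of 31099 probe sets 57 were control probe sets and left out. Among the others the platform annotation gave 1 symbol for 20826, several for 436 and none for 9780. The Entrez identifiers of the 126 members led to the same symbols in a table of RefSeq genes (GRCr8), used for names.

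Values were taken as log2(signal + 16). Probe sets with a mean signal over the 9 arrays above the 40th percentile were tested, 18625 in all. One limma 3.58.1 model in R 4.3.3 (lmFit, contrasts.fit, eBayes with an intensity trend) held the 3 groups and the preparation as a block, with 4 residual degrees of freedom and 10.7 of the prior. It was tested on simulated data. Arrays of 1 preparation come from 1 cell preparation per the design text. Their deviations from the group means correlated at 0.11 to 0.27, and those of different preparations at -0.21 to 0.04. The members and gene lists were chosen with earlier results of these data known. Named were members past the threshold, the 6 with the smallest p in each comparison and 19 genes fixed for their known roles, and the others by subfamily. Neighbours of the filter and members without overlap or with a shared direction were added after their values were seen. Alternatives were other pseudocounts, filters, scalings, no trend, no block, fewer arrays and 1 probe set per gene. Detection calls were not used here.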

Additional observations from a re-analysis of the deposited data

Results flagged for a closer look

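Kcnk5 passed the threshold in the test of Ang II against potassium. The log2 difference of Ang II from potassium was -0.77 (adjusted p = 0.014, limma), lower after Ang II in 3 of 3 preparations, by tests of the difference itself in a fit over all 9 arrays. Kcnk3 1398313_a_at had a larger difference that did not pass (-0.89, adjusted p = 0.067), also lower after Ang II in 3 of 3 preparations. The other tested probe sets of Kcnk3 did not pass either and differed in direction. Kcnk3 1387441_at was lower after Ang II in 3 of 3 preparations (-0.33, adjusted p = 0.19, limma). Kcnk3 1375807_at was higher after Ang II in 3 of 3 (0.54, adjusted p = 0.50, limma).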

How the results depend on the processing

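The count of potassium channel probe sets called after Ang II was 0 under every alternative run, and with limma at an unadjusted p of 0.05 it was 5. After potassium the count of 3 became 1 with no replicate block, where Kcnk5 was called, and 0 without an intensity trend. Leaving out 1 preparation gave 0 to 2 and leaving out 1 array 0 to 3, with 0 without preparation 1 or potassium replicate 1 and 1 without preparation 3, control replicate 1 or 3 or potassium replicate 2 or 3. For Ang II against potassium the count of 1 became 0 without a trend, and 2 with arrays scaled to the median of all 31042, with only the 6 arrays compared and with control replicate 2 left out and the other arrays scaled to their median, the second being Kcnk3 1398313_a_at. It lay between 0 and 2 without 1 preparation and without 1 array. The replicate block changed no other call of a potassium channel. For Kcnk5 the call after potassium remained in 17 of 24 alternatives (log2 difference 0.51 to 0.95), for Kcns3 in 14 of 24 (-0.55 to -0.34) and for Kcnk3 1398313_a_at in 9 of 23 (0.50 to 1.21), and that of Kcnk5 between the stimuli in 19 of 24 (-0.87 to -0.64). The filter on mean log2 values and the setting without control replicate 2 after scaling were added after the data were seen. Over all tested probe sets 404, 1004 and 893 were called after Ang II, after potassium and between the stimuli, 193, 499 and 442 with no replicate block and 32, 256 and 155 without a trend. Use of the median of all as scale moved the median log2 difference of all from -0.03 to 0.09 after Ang II and from -0.02 to 0.10 after potassium, with 425 of 455 and 731 of 911 calls higher in place of 306 of 404 and 521 of 1004. Dim signals limit what can be said of the 96 members below the filter.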
